A study of Arabidopsis thaliana with 12 samples.

Results

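The genes described are 3 Arabidopsis thaliana genes placed along tetrapyrrole and chlorophyll synthesis: AT5G63290, a HemN-like radical SAM protein, CHLM (AT4G25080) and CHLP (AT1G74470). They were chosen by locus, as loci for which a probe was paired with exactly 1 gene, and each had 1 such probe, so that the set holds 3 of 692 probes with 1 gene and 3 of 3439 probes in all. The choice was made with the psao against WT results known, so differences between the genotypes are given as a description. The fit across all probes below includes these 3 genes, and its calls are not a test of them. Total RNA had been measured on 6 arrays of the psao mutant, which lacks the photosystem I subunit PSI-O, and on 6 arrays of the wild type (WT). Both genotypes were of ecotype Columbia 0. The allele behind psao, the tissue, the age and the growth of the plants are not given in the sources used here. Nothing in the labels says that arrays came from separate plants, so the spread between arrays may be technical.

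Tetrapyrroles are ring molecules that plants build in the plastid from 5-aminolevulinic acid. The shared part of the pathway runs through coproporphyrinogen III to protoporphyrin IX, where it splits: insertion of iron leads to heme, and insertion of magnesium leads to chlorophyll. In bacteria, HemN oxidises coproporphyrinogen III without oxygen by radical SAM chemistry, and plants use an oxygen-dependent enzyme of another family for that step. The reaction of the HemN-like protein of Arabidopsis is not known from the sources used here. CHLM is the methyltransferase that acts on magnesium protoporphyrin IX, the first intermediate of the chlorophyll branch. CHLP is geranylgeranyl reductase, which makes the phytyl chain that is attached at the end of chlorophyll synthesis and is also used for tocopherols.

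The deposited intensities are relative, with the brightest probe of each array at 100. WT arrays 1 and 2 stood apart: their median intensities were 0.0995 and 0.0970, and 14.5% and 15.1% of their probes were at 0. The other 10 arrays had medians between 0.180 and 0.273 and between 4.22% and 7.33% of probes at 0. In each genotype, array 1 resembled array 2, array 3 resembled array 4 and array 5 resembled array 6. These are called couples below, a grouping seen in the data and not stated in the labels. None of the 3 genes had a 0 on any array. Because arrays differed in brightness, each gene is given as deposited, as a multiple of the median probe above 0 on its array, by its percentile among all probes of its array, and as log2 intensity after quantile normalization, which gives every array the same distribution. For bulk RNA, fewer cells that use a gene and less of its RNA per cell cannot be told apart.

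AT5G63290, the HemN-like gene, was 3.53-fold higher in psao than in WT after quantile normalization. Its deposited intensity had a lowest, median and highest value of 1.90, 2.03 and 2.09 on the psao arrays, against 0.281, 0.616 and 0.705 on the WT arrays. Its normalized log2 level had a lowest, median and highest value of 0.86, 0.91 and 1.04 on psao arrays, against -1.41, -0.71 and -0.58 on WT arrays. Every psao array therefore lay above every WT array. A complete separation with psao higher was found for 10.2% of the 3187 tested probes, and since the gene was picked with this contrast known, nothing is read from its being among them.

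The mean normalized log2 level of AT5G63290 was 0.93 ± 0.073 in psao and -0.88 ± 0.37 in WT (SD, n = 6 each), a difference of 1.82 ± 0.19 (SE from limma). That SE counts every array as separate, and with couples averaged it was 0.32. The psao arrays were close together, and the WT arrays were spread more widely. In WT, 98.8% of the sum of squares around the mean lay between couples, whose means were -1.36, -0.71 and -0.58, taken in the order of the array numbers. In psao, 21.7% lay between couples, and the couple means in the same order were 0.95, 0.89 and 0.96. The lower WT level in arrays 1 and 2 was thus not accompanied by a lower psao level in the arrays of the same numbers.

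**Figure D1:**
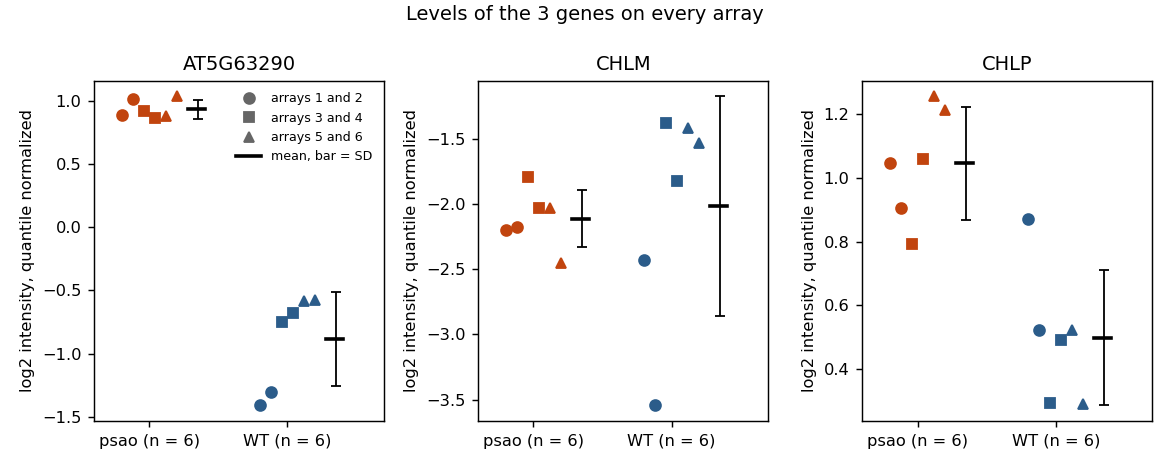
Quantile-normalized log2 intensity of AT5G63290, CHLM and CHLP on each of 6 psao and 6 WT arrays, with marker shapes for the couples and a mean with SD beside each group. AT5G63290 is higher on all 6 psao arrays than on any WT array, CHLM overlaps, and CHLP overlaps through WT array 1 at 0.87 and psao array 3 at 0.79.

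Other scales gave the same separation for AT5G63290. As a multiple of the median probe of its array, its lowest, median and highest values were 6.30, 7.73 and 9.43 in psao and 2.03, 3.05 and 3.39 in WT. Groups were completely separated in this direction on this scale in 7.91% of tested probes. Its percentile among all probes of an array ran from 92.1 to 92.9 on psao arrays and from 71.5 to 80.2 on WT arrays. The probe thus kept nearly the same rank on all psao arrays, and a lower and more variable rank on WT arrays. The share of tested probes separated by percentile was not computed. These scales describe the same arrays again, and the gene was picked with this contrast known, so nothing further is read from them.

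CHLM did not show a common direction. Its deposited intensity had a lowest, median and highest value of 0.224, 0.287 and 0.311 on psao arrays and of 0.0464, 0.305 and 0.384 on WT arrays. Its normalized log2 level had a lowest, median and highest value of -2.45, -2.10 and -1.79 in psao and of -3.54, -1.67 and -1.37 in WT. All psao arrays lay inside the range of the WT arrays. The 2 lowest-ranked WT values were those of arrays 2 and 1, at -3.54 and -2.43, and WT arrays 3 to 6 lay between -1.82 and -1.37.

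The mean normalized log2 level of CHLM was -2.11 ± 0.22 in psao and -2.02 ± 0.84 in WT (SD, n = 6 each), a difference of -0.094 ± 0.34 (SE), well within the spread. The SE was 0.46 with couples averaged. Leaving out WT arrays 1 and 2, a choice made after seeing the data, takes away the lowest WT values of CHLM. The difference was then -0.55 ± 0.16. With arrays 3 to 6 of both genotypes alone, which drops the same WT arrays, it was -0.53 ± 0.18. Both SEs count every array as separate, so neither is read as a difference between the genotypes. Leaving out WT array 2 by itself gave -0.39. As a multiple of the array median, CHLM had a lowest, median and highest value of 0.872, 1.07 and 1.30 in psao and of 0.340, 1.50 and 1.88 in WT. Its percentile in the array was lower in psao than in WT in 4 of the 6 same-numbered pairs. These are the pairs numbered 3 to 6, and the pairs numbered 1 and 2 ran the other way.

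CHLP was 1.46-fold higher in psao than in WT after quantile normalization, a smaller difference whose size depended on the scale. Its deposited intensity had a lowest, median and highest value of 1.88, 2.21 and 2.46 on psao arrays and of 1.16, 1.30 and 1.62 on WT arrays. As deposited, all psao arrays lay above all WT arrays, as was the case for 16.4% of tested probes. Deposited psao values were shifted upward as a whole, by a median of 0.43 log2 units over all tested probes, against -0.039 after normalization.

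The normalized log2 level of CHLP had a lowest, median and highest value of 0.79, 1.05 and 1.26 in psao, against 0.29, 0.51 and 0.87 in WT. The groups overlapped through WT array 1, at 0.87, and psao array 3, at 0.79, and 5 of 6 psao arrays lay above the highest WT array. The mean was 1.05 ± 0.18 in psao and 0.50 ± 0.21 in WT (SD, n = 6 each), a difference of 0.55 ± 0.16 (SE). That SE counts every array as separate, and with couples averaged it was 0.28. As a multiple of the array median, CHLP had a lowest, median and highest value of 6.40, 8.97 and 10.6 in psao and of 5.82, 6.76 and 11.7 in WT, and the groups overlapped. On that scale the mean difference was 0.17 ± 0.22 log2 units (SE), and psao was higher in 4 of 6 same-numbered pairs. Its percentile in the array ran from 91.8 to 93.6 in psao and from 88.5 to 92.9 in WT, with psao higher in 6 of 6 pairs.

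**Figure D2:**
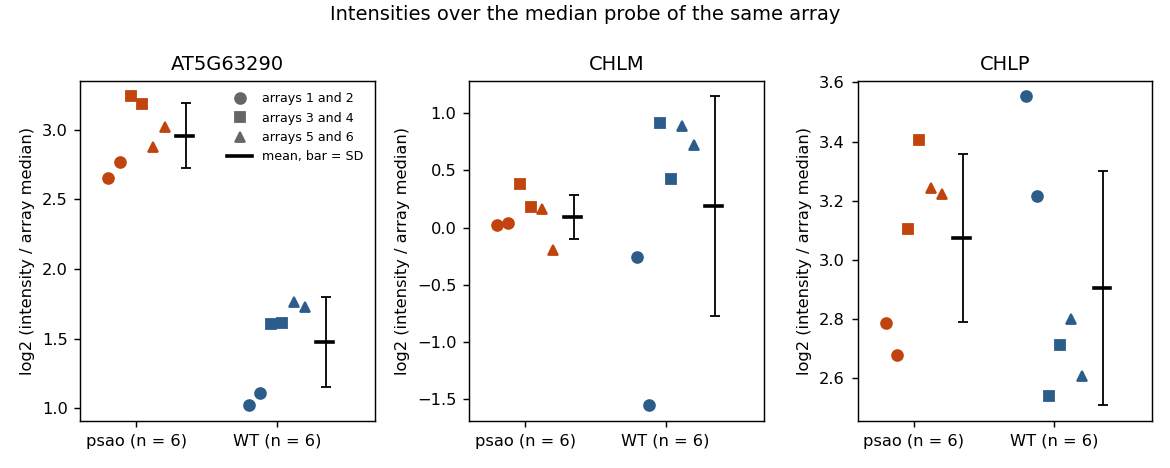
Log2 of the deposited intensity over the median probe above 0 of the same array, for each gene on 6 psao and 6 WT arrays, with marker shapes for the couples and a mean with SD beside each group. AT5G63290 stays separated, and for CHLP the WT arrays 1 and 2 stand above the psao arrays of the same numbers.

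Within couples, the 3 genes behaved differently. After normalization, AT5G63290 differed between psao and WT by 2.31, 1.60 and 1.54 log2 units in the first, middle and last couple. CHLM differed by 0.80, -0.31 and -0.77 in the same order, and CHLP by 0.28, 0.53 and 0.83. AT5G63290 and CHLP thus had psao above WT in all 3 couples, and CHLM changed sign between couples. Relative to the array median, AT5G63290 differed by 1.64, 1.60 and 1.20, CHLM by 0.94, -0.39 and -0.82, and CHLP by -0.65, 0.63 and 0.53. On this scale CHLP was lower in psao in arrays 1 and 2, where the WT medians were lowest and the psao medians highest. As deposited, the differences were 2.78, 1.72 and 1.54 for AT5G63290, 2.07, -0.27 and -0.49 for CHLM, and 0.49, 0.74 and 0.86 for CHLP. The 3 scales lay closest together in arrays 3 and 4, and the part of array brightness in the differences of arrays 1 and 2 was not tested.

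**Figure D3:**
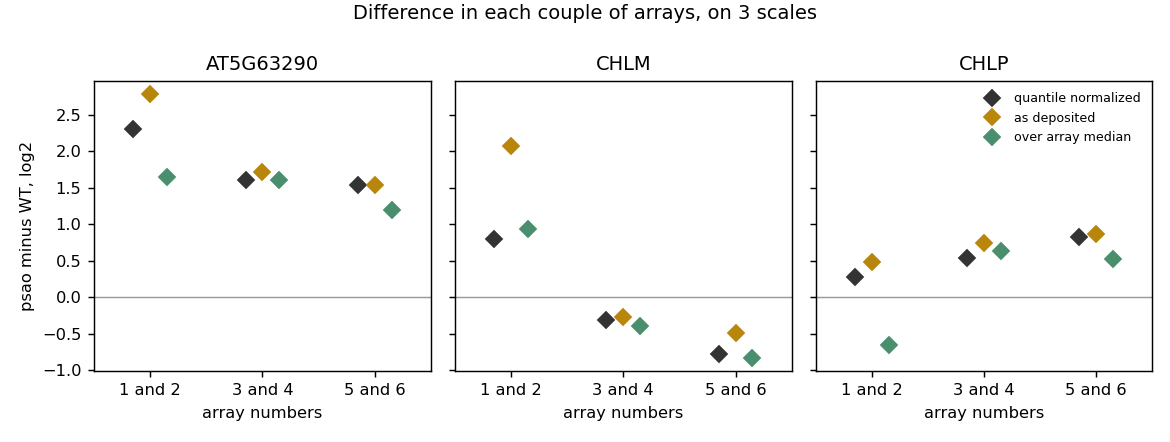
Difference between psao and WT in log2 units for each couple of arrays (2 arrays of each genotype), for quantile-normalized, deposited and median-relative intensities. AT5G63290 is above 0 in all 9 points, CHLM is above 0 only in arrays 1 and 2, and CHLP is below 0 only in arrays 1 and 2 relative to the median.

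A ratio of 2 genes on the same array is free of any factor that multiplies the whole array, and the probes' own brightness cancels when the ratio is compared between genotypes. The log2 ratio of CHLM over AT5G63290 was -2.86 ± 0.22 in psao and -1.29 ± 0.71 in WT (SD, n = 6 each), a difference of -1.58 ± 0.30 (SE). It was lower in psao in all 3 couples, by -0.71, -1.99 and -2.03. The ratio overlapped between the genotypes through WT array 2, at -2.67. The log2 ratio of CHLP over AT5G63290 was 0.12 ± 0.19 in psao and 1.43 ± 0.70 in WT (SD, n = 6 each), a difference of -1.31 ± 0.30 (SE). By couple it was lower in psao by -2.30, -0.97 and -0.67, so arrays 1 and 2 differed most. The SEs of the ratios count every array as separate. The ratio of CHLP over AT5G63290 did not overlap, with a highest psao value of 0.37 and a lowest WT value of 0.88. Both ratios were lower in psao in 6 of 6 same-numbered pairs, which fall in 3 couples. AT5G63290 was thus higher in psao relative to CHLM and to CHLP in every pair. As AT5G63290 was picked with its difference known, nothing is read from this, and ratios of other probes to it were not computed.

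The log2 ratio of CHLP over CHLM was 2.98 ± 0.31 in psao and 2.72 ± 1.27 in WT (SD, n = 6 each), a difference of 0.26 ± 0.54 (SE). The couples differed in sign, with -1.59 in arrays 1 and 2, against 1.02 and 1.35 in the other couples. With arrays 3 to 6 alone the difference was 1.19, and leaving out WT array 3 brought it to 0.044. On psao arrays the ratio stayed between 2.64 and 3.42, whereas WT arrays 1 and 2 stood at 3.81 and 4.77 and WT arrays 3 to 6 between 1.63 and 2.29.

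**Figure D4:**
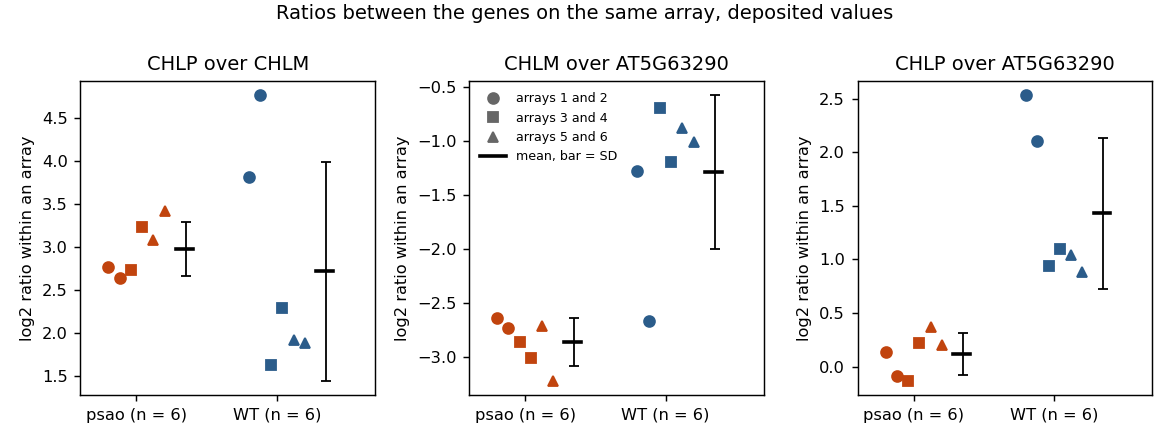
Log2 ratio of deposited intensities between pairs of the 3 genes on the same array, for 6 psao and 6 WT arrays, with marker shapes for the couples and a mean with SD. CHLP over AT5G63290 is separated between the genotypes, and in CHLP over CHLM the WT arrays 1 and 2 lie above, and WT arrays 3 to 6 below, all psao arrays.

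In limma across all 3187 tested probes, 2 of the 3 genes passed the adjusted threshold of 0.05, AT5G63290 and CHLP, both higher in psao. The background was high: 29.8% of all tested probes passed, and 14.8% passed with a higher level in psao. As the genes were chosen with this contrast known, nothing is read from their count. With arrays of a couple averaged, 1 of 3 passed, AT5G63290, where 1.79% of all probes passed. With arrays 3 to 6 alone, 3 of 3 passed, CHLM with a lower level in psao, where 38.7% of all probes passed. That setting drops the arrays with the lowest WT values of CHLM and counts every array as separate. CHLP did not pass under 6 of 26 alternatives. Among these, it passed neither with couples averaged nor under median centring, where 30.7% of all probes passed, and without psao array 5 it did not pass either, at a difference of 0.50. By size, the difference of AT5G63290 was above that of 95.7% of all tested probes, that of CHLP above 72.7% and that of CHLM above 47.5%. The absolute difference of CHLP was larger than that of 45.3% of all probes, so it lay near the middle of the probes measured here.

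**Figure D5:**
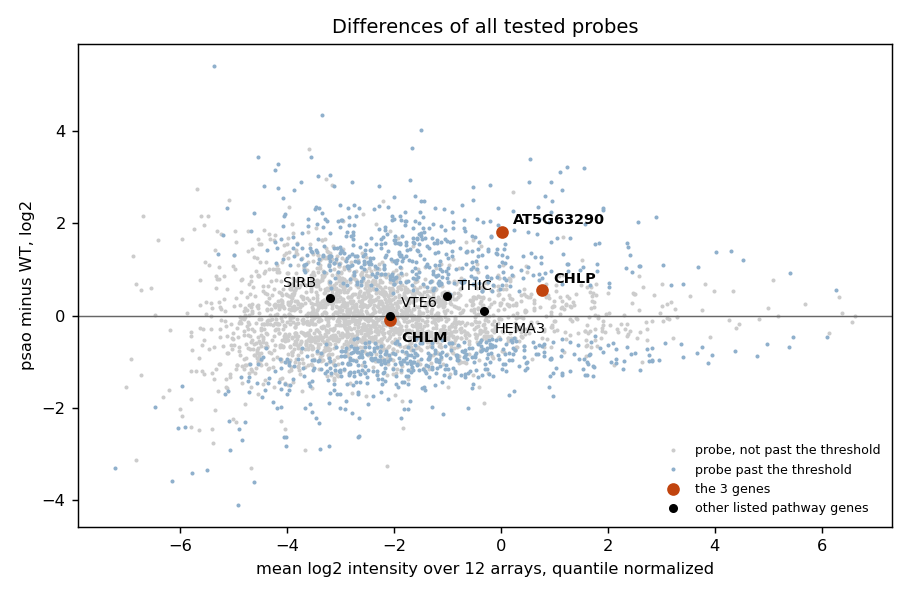
Difference between psao and WT (log2) against mean normalized log2 intensity over 12 arrays for 3187 probes, with probes past the adjusted threshold in blue. The 3 genes are in red, and the other 4 measured genes of the lists described below are in black. AT5G63290 lies toward the upper edge of the cloud, and CHLM and CHLP lie within it.

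The pathway around these genes was thinly covered. Of 84 loci in 8 lists, from the early steps through the magnesium, heme and siroheme branches, chlorophyll breakdown, regulators, isoprenoid precursors, tocopherol and phytol to other radical SAM enzymes, 7 had a probe with 1 gene. Another 6 loci lay only on probes paired with several genes and are not named. Besides the 3 genes, 4 were measured, and limma called 0 of them. Before adjustment 1 of the 4, THIC, had a p under 0.05. THIC was listed only as another radical SAM enzyme, not as a gene of tetrapyrrole synthesis. With THIC included, the median difference of the 4 was 0.24, beside -0.039 for all tested probes, and 3 of the 4 differences were above 0. The differences of HEMA3, SIRB and VTE6 were 0.098, 0.39 and -0.0083.

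HEMA3, annotated with the glutamyl-tRNA reductases of the first committed step, had a lowest, median and highest normalized log2 level of -0.46, -0.24 and -0.15 in psao and of -0.97, -0.19 and -0.0068 in WT. Its difference was 0.098 ± 0.20 (SE, limma adjusted p = 0.742), and the sign turned with arrays 3 to 6 alone (-0.19). As for CHLM, its lowest WT values were those of arrays 1 and 2. SIRB, the ferrochelatase that makes siroheme for sulfite and nitrite reduction, had values of -4.02, -2.74 and -2.64 in psao and of -4.64, -3.33 and -2.31 in WT in the same order. Its difference was 0.39 ± 0.41 (SE, limma adjusted p = 0.492), and its groups overlapped widely. The size of this difference moved with single arrays: it was 0.13 without WT array 2, 0.23 without WT array 3, 0.60 without psao array 1 and 0.59 without WT array 1. As deposited the SIRB difference was 1.09, where the median over all tested probes was 0.43. It was 0.087 with arrays 1, 2, 5 and 6, stayed above 0 in all 26 alternatives and passed in 0 of them.

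AT1G78620, known as VTE6, a kinase of phytol salvage that recycles the phytyl chain, stood at -2.83, -2.04 and -1.42 in psao and at -2.67, -2.23 and -1.27 in WT, again as lowest, median and highest. Its difference was -0.0083 ± 0.28 (SE, limma adjusted p = 0.984), and it was above 0 as deposited (0.41) and in arrays 3 to 6 alone (0.13). THIC, a radical SAM enzyme of thiamine synthesis, stood at -1.13, -0.82 and -0.33 in psao and at -1.63, -1.17 and -1.04 in WT. All 6 psao arrays of THIC lay above the WT mean, the difference was 0.43 ± 0.18 (SE), and it did not pass (limma adjusted p = 0.0859). It passed as deposited, where the difference was 0.66 (limma adjusted p = 0.0264). On that scale the median difference over all tested probes was 0.43, close to the 0.41 of VTE6. Over the alternatives for THIC the adjusted p in limma went from 0.0160 to 0.637. Lists of green leaf, root and seed markers had no probe with 1 gene, so the tissue was not checked here.

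Among the 3 genes, likeness across the 12 arrays was not uniform. Pearson's r of normalized log2 levels was 0.728 between CHLP and AT5G63290, 0.118 between CHLM and AT5G63290 and -0.306 between CHLP and CHLM. With the mean of each genotype removed, these became -0.560, 0.763 and -0.434 in the same order. The value of 0.763 for CHLM and AT5G63290 came from WT, where both were low on arrays 1 and 2: r was -0.632 over the 6 psao arrays and 0.835 over the 6 WT arrays. For CHLP and AT5G63290, r was -0.028 over the psao arrays and -0.737 over the WT arrays, and for CHLP and CHLM it was -0.570 over the psao arrays and -0.459 over the WT arrays. These values describe the arrays, which share couples and array brightness.

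Of 480 other single-gene probes with a signal on all 12 arrays, those most like AT5G63290 were AT5G55580 (r = 0.971), listed in RefSeq as mTERF9, AT2G44760 (0.962) and AT5G58330 (0.958), the NADP-dependent malate dehydrogenase. With genotype means removed, r was 0.782, 0.894 and 0.670. Most like CHLP were NdhS (r = 0.898), a subunit of the chloroplast NDH complex, AT4G24750 (0.889) and AT3G19120 (0.885), with 0.601, 0.586 and 0.560 after genotype means were removed. The likeness to CHLP and AT5G63290 over 12 arrays thus held in part the difference between genotypes that these probes share. Most like CHLM were AT-HF (r = 0.944), of histidine synthesis, AT5G11550 (0.936) and DI21 (0.915), a drought-induced gene. For these, r stayed at 0.958, 0.938 and 0.914 with genotype means removed. Removing genotype means leaves the spread among WT arrays in place. Normalized CHLM levels were -2.43 and -3.54 on WT arrays 1 and 2, and between -1.82 and -1.37 on WT arrays 3 to 6. Likeness without WT arrays 1 and 2 was not tested, so these r values are not read as a link apart from those arrays.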

How the data were processed

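Each probe had 1 deposited intensity on each of 6 psao and 6 WT arrays, and the authors had scaled each array so that its brightest probe stood at 100, as seen from the values. Earlier steps are not given in the sources used here, and no background level could be read. For arrays, their number limits the precision. Probes were named from the platform annotation: of 3439 probes, 692 had 1 gene, 870 several, and 1877 were not listed. Names were updated through RefSeq genes of assembly TAIR10.1, where 690 matched. No array genome build was named, so no positions are printed.

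Zeros were set missing, log2 intensities were quantile normalized (array medians ranged over 1.15 log2 units), and probes with fewer than 4 values in a group were left out, which kept 3187. The fit was lmFit and eBayes of limma 3.58.1 in R 4.3.3, psao minus WT, two-sided, with Benjamini-Hochberg adjustment over all 3187 probes. It was run on simulated data with known changes, in which all arrays varied independently. The simulation left out the resemblance within couples, so it cannot show how many calls are false in these data. The genes and lists were chosen with earlier results of these data known. Named were the 3 genes, for each the 3 single-gene probes of highest r, and every listed gene with a single-gene probe.

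Same-numbered psao and WT arrays deviated together from their group means (r from 0.144 to 0.239 over probes, in all 6 pairs). Arrays of different numbers were not compared in this way, so pairing by number and pairing by couple cannot be told apart. The numbers in the titles were taken to pair arrays in counts over pairs and in the replicate block, and the main fit used no pairing. What a number stands for is not in the labels. Residuals within a couple correlated at 0.701 (duplicateCorrelation, statmod 1.5.0), so an SE that counts every array as separate may be too small. Alternatives covered scaling, zeros, filters, the pairing, couples, array weights and leaving out arrays. Leaving out WT arrays 1 and 2 was added after seeing the data.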

Additional observations from a re-analysis of the deposited data

Results flagged for a closer look

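Of 16 sets of 6 values, 2 held an array far from the others, and for separate values chance gives about 1 in 20 such sets. Arrays of a couple resembled each other, and whether that rate holds for these sets was not tested. In SIRB, psao replicate 1 stood at a normalized log2 level of -4.02, with the nearest other psao array at -3.14. In THIC, WT replicate 3 had a level of -1.63, and the closest of the remaining WT arrays had -1.21. None of the 3 genes described had an array flagged by this rule. CHLM on WT array 2 nonetheless stood apart, at -3.54, with the nearest WT array at -2.43.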

How the results depend on the processing

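The difference of AT5G63290 was positive under all 26 alternatives. It also passed in limma under them, narrowly with couples averaged (limma adjusted p = 0.0491). As the gene was picked with this contrast known, its passing is not a test of it, and nothing is read from it. The difference of 1.82 went to 1.48 with median centring, 1.53 with WT arrays 1 and 2 left out and 1.55 with arrays 3 to 6 alone. It was 1.63 with array weights and 2.01 as deposited, and ranged from 1.69 to 1.89 when single arrays were left out. CHLP stayed positive in 26 of 26 and passed in 20, with 0.17 under median centring, and with 0.50 to 0.62 when single arrays were left out. CHLM was negative in 20 of 26, at 0.44 as deposited, and from -0.39 to 0.034 without single arrays. As deposited, the median difference over all tested probes was itself 0.43, which bears on every deposited value given here. The ratio of CHLP over CHLM stayed positive, from 0.044 to 0.67 without single arrays. The number of probes passing in limma, 949, was 57 with couples averaged, 330 with couples as a random block, 602 with arrays 1, 2, 5 and 6, 431 with arrays 1 to 4, 1427 with array weights and 466 at a threshold of 0.01. It ran from 788 to 939 without single arrays. As deposited, 763 of 986 called probes were higher in psao, against 472 of 949. With the array number as a replicate block 1090 probes passed, and the block changed no call of the 7 measured genes of the lists. Of the 7 measured genes of the lists, 2 passed, beside 29.8% of all tested probes. The count was 1 with median centring (30.7% of all probes) and with couples averaged (1.79%) or as a random block. It was also 1 with arrays 1, 2, 5 and 6 or 1 to 4, and from 1 to 2 without single arrays. It was 3, all higher in psao, as deposited and with array weights. It was 3, with CHLM lower, with WT arrays 1 and 2 left out and with arrays 3 to 6 alone (38.7% of all probes). As the share of all probes passing moved too, nothing is read from these counts. HEMA3 turned to -0.22 with median centring, -0.16 with WT arrays 1 and 2 left out, -0.19 with arrays 3 to 6, -0.14 with array weights and -0.020 without WT replicate 1. VTE6 turned to 0.41 as deposited, 0.30 with WT arrays 1 and 2 left out, 0.13 with arrays 3 to 6, 0.19 with array weights, and 0.14, 0.15 and 0.089 without psao replicate 4, WT replicate 1 and WT replicate 2. Where couples are averaged fewer values enter the fit, and elsewhere the cause was not tested.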
